A study of Homo sapiens with 12 samples.

Results

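The comparison described here asks what 4-thiouridine (4SU) changed in ribosome occupancy when every library had received UVA light. It used 6 of the 12 ribosome profiling libraries of the series, chosen by treatment alone: 3 from cells given 4SU and then UVA, and 3 from cells given UVA without 4SU. All 12 came from HAP1, an adherent near-haploid human line derived from the leukaemia line KBM-7, with the genotype given as WT. The 4SU+UVA cells had 5 uM 4SU for 18 h, then 6 kJ of UVA per square metre and a recovery of 30 min before harvest, and the UVA cells had the same light without the nucleoside. Both groups therefore share the irradiation, the recovery and lysis in cycloheximide. The other 6 libraries, 3 untreated and 3 with 4SU alone, served for values side by side and for 1 estimate of the spread. The series design calls the 3 samples of a group biological replicates. The labels do not say how cultures were divided, so p-values measure the spread between these samples.

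4SU is a uridine analogue that cells build into newly made RNA. Under UVA the sulphur-bearing base reacts readily and can bond covalently to a protein that lies against it, which makes an RNA-protein crosslink, whereas UVA of this kind without the analogue makes few such bonds. A crosslink within a coding sequence is a block to an elongating ribosome, and the title of the study places the work on the sensing of such lesions through translation. Ribosome profiling sequences the stretch of mRNA that each ribosome protects from nuclease. The footprints on a gene rise with the amount of its mRNA and with the number of ribosomes on each mRNA, and these cannot be told apart in these libraries. A ribosome halted on an mRNA leaves a footprint just as a moving one does.

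Values were RPKM, the reads per kilobase of transcript scaled to a common library total. The whole reads and transcript lengths behind them were recovered from the step size of the values, which gave 3358145, 5425688 and 4613701 reads for the UVA libraries and 5526950, 1899854 and 3044856 for the 4SU+UVA libraries. The second 4SU+UVA library was thus the shallowest of the 12. Replicates correlated at 0.987 to 0.990 in UVA and at 0.982 to 0.987 in 4SU+UVA over the tested genes on the log2 scale. At equal depth the median gene of 20 RPKM or more in untreated cells had an SD of 0.094 on the log2 scale among the UVA libraries and of 0.117 among the 4SU+UVA libraries. Of 19580 genes, 11333 reached 1 RPKM in at least 3 of the 6 libraries and were tested. The table names genes by Ensembl identifier only, and no table used here pairs these with symbols. Genes are therefore described by transcript length and footprint density, and 2 identifiers that rose and 2 that fell are given. For the same reason the identity of the cells was not checked against marker genes.

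4SU changed the footprint density of 6253 of the 11333 genes (55.2%) in irradiated cells, by limma on log2(RPKM + 0.5) at a Benjamini-Hochberg adjusted p under 0.05. Density was higher with 4SU for 3978 genes (35.1%) and lower for 2275 (20.1%). Many of these changes were small: 48.8% of the genes called moved by less than 1.5-fold, and the median gene that rose did so by 0.61 on the log2 scale, against -0.57 for the median gene that fell. At least 2-fold changes were called for 536 genes that rose and 344 that fell, and at least 4-fold changes for 27 and 8. The 5th percentile of all log2 changes was -0.83 and the 95th was 0.99. RPKM is a share of each library, so the balance of rises and falls depends on what is held level. The median gene stood 0.175 above 0 on the log2 scale as deposited, 0.085 with each library centred on its median and 0.039 after quantile normalisation. The split was then 3132 higher and 2681 lower with centring, and 2912 higher and 2824 lower with quantile normalisation.

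**Figure D1:**
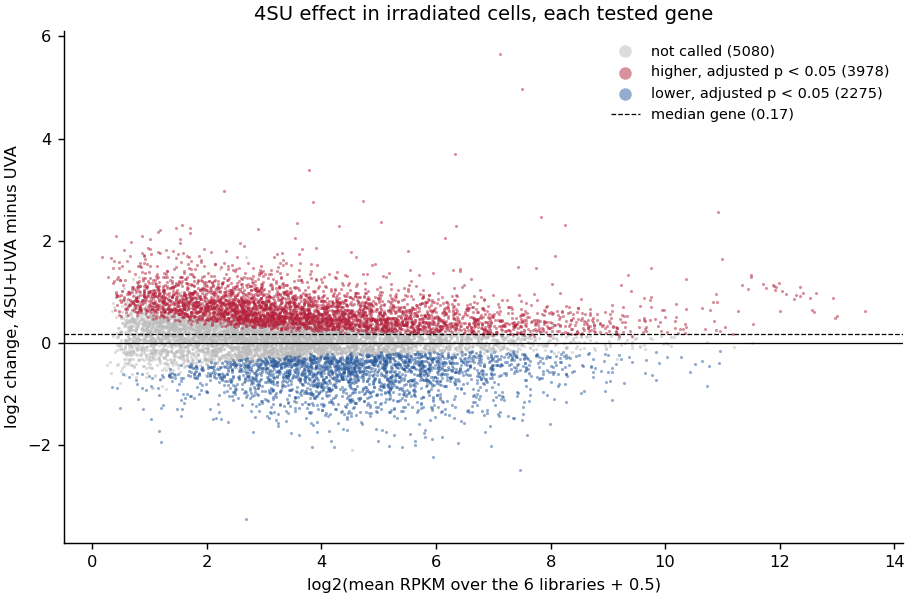
Each point is 1 of the 11333 tested genes. The horizontal axis is log2 of the mean RPKM over the 6 libraries plus 0.5, the vertical axis is the log2 change in RPKM + 0.5 from UVA to 4SU+UVA, and red and blue mark the 3978 genes called higher and the 2275 called lower. The rises crowd at low density, and 2 genes stand above all others at more than 4 on the log2 scale.

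The same values were also compared library by library without a model. They carry the same scaling as the fit, so the counts that follow are no separate support for its split. Full separation of 3 against 3 libraries has an exact two-sided permutation p of 0.1, so some genes separate by chance. At 6790 genes (59.9%) the 3 libraries of one group lay wholly to one side of the 3 of the other, with 4SU+UVA above at 4321 genes and below at 2469. Of these, 3744 and 2205 were also called by limma, and 304 genes were called although the groups overlapped. Most tested genes, 10425, reached 1 RPKM in all 6 libraries, and 3597 of them were called higher and 2239 lower. A further 159 passed only through the 4SU+UVA libraries and 11 only through the UVA libraries, so a difference was built into their selection.

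The gene with the largest rise by the naming rule was ENSG00000120738, whose transcript is 3137 nt long. Its density was 5.32, 4.17 and 4.84 RPKM in the UVA libraries and 179, 318 and 318 RPKM in the 4SU+UVA libraries. The groups were far apart and the first 4SU+UVA library was lower than the other two. The change was 5.65 on the log2(RPKM + 0.5) scale (SE 0.18, adjusted p = 5.2e-11 by limma), a rise of 50.1-fold. Without light the gene did not pass the test, with 3.52 ± 0.435 RPKM in untreated cells and 3.25 ± 0.129 with 4SU alone (SD, n = 3 each).

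The next was ENSG00000177606, with a transcript of 3257 nt. It had 12.3, 9.96 and 9.25 RPKM in the UVA libraries and 251, 379 and 418 RPKM in the 4SU+UVA libraries, again with the first 4SU+UVA library the lowest of its group. The change was 4.97 on the log2 scale (SE 0.17, adjusted p = 6.2e-11 by limma), or 31.3-fold. The level was 6.04 ± 0.903 RPKM in untreated cells and 6.04 ± 0.897 with 4SU alone (SD, n = 3 each), so both groups without light overlapped. All 9 libraries of the other groups thus held both genes at 12.3 RPKM or under, and the 3 4SU+UVA libraries held them at 179 RPKM or more.

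Of the falls, ENSG00000141367 carried far more reads than the other identifier given. Its transcript is 5292 nt long and it held 296, 306 and 297 RPKM in the UVA libraries against 54.7, 53.4 and 51.9 in the 4SU+UVA libraries. Replicates differed little within either group. The change was -2.48 on the log2 scale (SE 0.18, adjusted p = 5.9e-08 by limma), a 5.57-fold drop. In the dark the gene was also lower with 4SU, by -0.82 (adjusted p = 0.0085 by limma), but the 3 libraries with 4SU alone spread widely, at 125, 178 and 274 RPKM, below the untreated range of 313 to 329 RPKM.

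The largest fall by the rule, ENSG00000288644, rested on very few reads. Its transcript is 99 nt long and it had 12.03, 11.2 and 8.76 RPKM in the UVA libraries against 3.66, 0 and 0 in the 4SU+UVA libraries. These values come from 14 and 2 reads in all, a ratio of read rates of 0.183 with an exact 95% interval of 0.0202 to 0.796 that covers counting error only. The fitted change of -3.45 (SE 0.65, adjusted p = 0.00048 by limma) was no longer called at equal depth, where it was -3.18 with an adjusted p of 0.0658. Leaving out the first 4SU+UVA library, which held both reads of that group, gave -4.47, a pseudocount of 0.1 gave -4.99, and voom on the recovered reads gave -2.02.

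**Figure D2:**
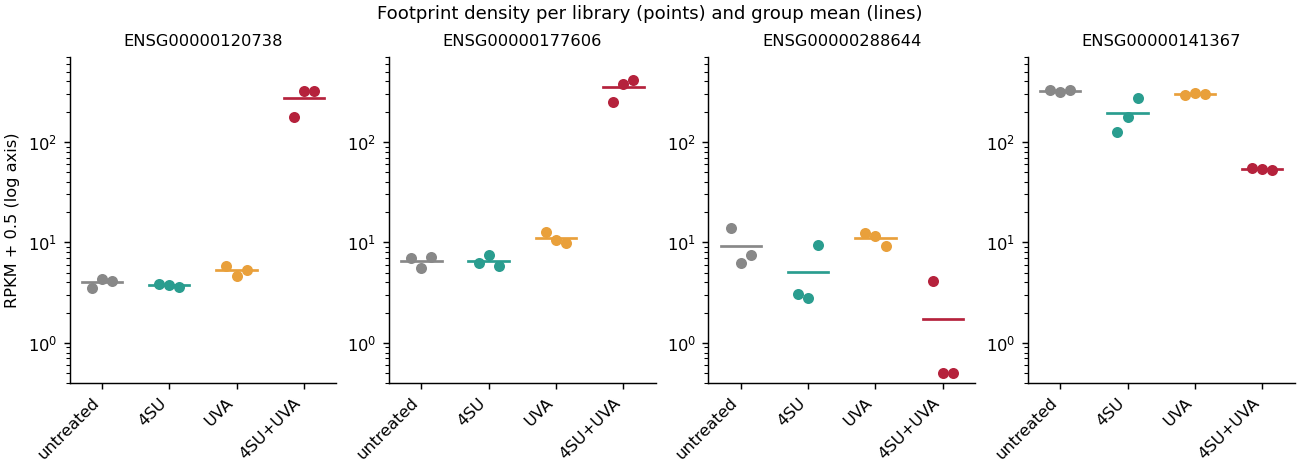
RPKM + 0.5 on a log axis for the 4 genes given by identifier, in each of the 12 libraries; points are libraries and lines are group means (n = 3). ENSG00000120738 and ENSG00000177606 lie at 179 to 418 RPKM in the 4SU+UVA libraries and at 12.3 RPKM or under in the other 9, ENSG00000141367 is at 51.9 to 54.7 RPKM there, and ENSG00000288644 is at 0 in 2 of them.

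The 12 largest rises among genes of at least 5 RPKM ran from 4.92-fold to 50.1-fold on transcripts with a median length of 1881 nt, and the 12 largest falls on transcripts with a median of 6664 nt. Those falls ran from 3.75-fold to 5.57-fold, apart from the 10.9-fold of ENSG00000288644 with its 14 and 2 reads. Over all calls, genes that rose had a median transcript length of 2214.5 nt and genes that fell one of 3376 nt, against 2619 nt for all tested genes. For changes of at least 2-fold the medians were 2012.5 nt and 4640.5 nt. Density in untreated cells, whose libraries are in neither group compared and entered the fit only through the shared estimate of the spread, also differed between them: the median was 8.22 RPKM for genes that rose, 28.0 RPKM for genes that fell and 10.3 RPKM for all.

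Transcript length ordered the balance of rises and falls. With the tested transcripts divided by length into 5 classes of about equal size, 1118 genes rose and 147 fell in the shortest (42 to 1464 nt), with a median change of 0.32. The second class had 852 rises and 376 falls, the third 749 and 490, and the fourth 658 and 620. In the longest class (4675 to 28227 nt) 601 genes rose and 642 fell, with a median of 0.04. These became 466 and 742 with a median of -0.05 with centring, and 293 and 893 with a median of -0.19 with quantile normalisation. At the extremes, 91 of 160 transcripts under 500 nt rose and 1 fell, and 57 of 231 transcripts of 10000 nt or more rose and 82 fell, with a median of -0.01.

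Density ordered it as well. With genes divided into 5 classes by RPKM in untreated cells, 902 rose and 48 fell in the lowest, with a median of 0.45, and in the highest 735 rose and 879 fell, with a median of -0.02. Some of the lowest genes had passed the filter only through the 4SU+UVA libraries. Over the 1777 of them with at least 1 RPKM in untreated cells, 660 rose and 46 fell, and the median was 0.40. With quantile normalisation 292 of them rose and 187 fell, and the median was 0.06.

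Length and density were then crossed in a grid. Of the 132 genes that belonged to the longest class and to the densest, 113 fell and 9 rose, with a median change of -0.86. The neighbouring cells of the grid moved the same way: the 260 dense genes of the fourth length class had a median of -0.62 (206 fell, 17 rose), and the 300 longest genes of the fourth density class had one of -0.58 (216 fell, 27 rose). The 659 longest genes of the lowest density class had a median of 0.37, and the 560 of them with at least 1 RPKM in untreated cells one of 0.32. With quantile normalisation those medians were 0.01 and -0.04, so no direction holds there under every scaling. Among short transcripts of high density 516 of 933 genes rose, 105 fell and the median was 0.23. The medians of the 3 falling cells stayed below -0.5, and that of the 933 short dense genes above 0.1, with centring and with quantile normalisation.

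**Figure D3:**
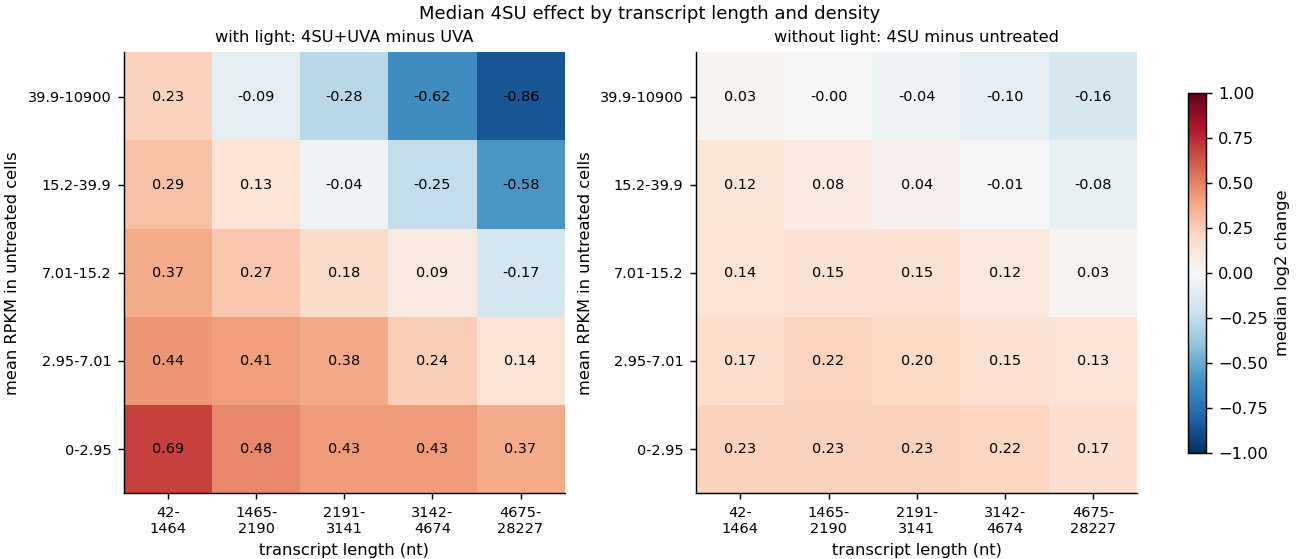
Median log2 change of the genes in each cell of a grid of 5 transcript length classes (horizontal axis, nt) by 5 classes of mean RPKM in untreated cells (vertical axis), for 4SU+UVA minus UVA on the left and 4SU minus untreated on the right. With light the medians run from 0.69 for short transcripts of low density to -0.86 for long transcripts of high density; the 0.69 includes genes that passed the filter only through the 4SU+UVA libraries, is 0.54 over the 206 genes of that cell with at least 1 RPKM in untreated cells, and is 0.34 over the whole cell with quantile normalisation. Untreated cells also form one side of the right panel, so its vertical order is not independent of its values.

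At the very top of the density range the changes ran upwards again. Of 37 genes with at least 2000 RPKM in untreated cells, a group noticed on the plot of change against density, 31 rose and 4 fell, with a median of 0.89. With each library centred on its median 30 of them rose and 5 fell, and the median was 0.80. With quantile normalisation 13 rose and 12 fell, and the median was 0.02. Quantile normalisation gives the highest values of all libraries the same distribution, so it cannot decide the direction of a group at the top. Their transcripts were 388 to 3158 nt long.

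The shift towards short transcripts was present in each of the 3 4SU+UVA libraries, which include both the deepest and the shallowest of the 6 compared. The transcript under the average footprint was 3164, 3178 and 3141 nt long in the UVA libraries and 2753, 2828 and 2792 nt in the 4SU+UVA libraries, a difference of -370 nt between means. The groups did not overlap, and in the dark the same difference was -50.7 nt. The shortest length class held 24.4% ± 0.247 of the footprints with UVA and 32.0% ± 0.140 with 4SU+UVA (SD, n = 3 each). The longest class held 19.1% ± 0.222 and 15.2% ± 0.521. Genes both long and dense went from 7.47% ± 0.0919 of footprints to 4.77% ± 0.278, while short dense genes went from 22.4% ± 0.245 to 29.4% ± 0.170. The second length class held 19.4% in both groups, and its libraries overlapped.

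**Figure D4:**
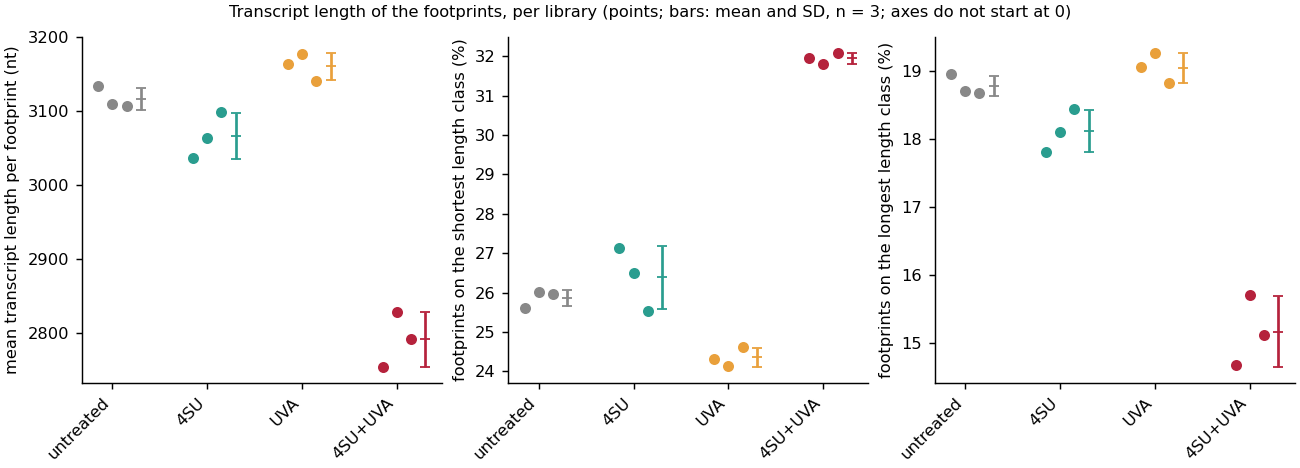
Mean transcript length per footprint (nt, left) and percent of footprints on the shortest (middle) and longest (right) length class, for each of the 12 libraries; points are libraries, bars are mean and SD (n = 3), and the axes do not start at 0. In each panel the 3 4SU+UVA libraries lie apart from the other 9, at 2753 to 2828 nt, 31.8% to 32.1% and 14.7% to 15.7%.

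Footprints were also spread over the genes differently. The 10 genes with the most reads in untreated cells held 4.65% ± 0.0744 of footprints with UVA and 6.13% ± 0.255 with 4SU+UVA, whereas the top 1000 held less, 55.1% ± 0.156 against 52.9% ± 0.397 (SD, n = 3 each). Without light the top 1000 also held less with 4SU, 54.1% against 56.8% in untreated cells, and the top 10 held 5.01% against 5.19%. The untreated libraries set these ranks, so the dark values are not independent of them. With all libraries thinned to 1898709 reads, 12853 ± 72.6 genes had at least 1 read with UVA and 13314 ± 51.5 with 4SU+UVA. The lowest density class rose from 1.59% ± 0.0255 of footprints to 2.28% ± 0.123, but it includes genes that passed the filter only through the 4SU+UVA libraries. A part of that rise was therefore built into the selection. Of 28 such measures per library, 27 did not overlap between the groups, each with an exact two-sided permutation p of 0.1, which is the smallest that 3 against 3 can give (0.1037 adjusted over the 28).

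The same nucleoside without light changed far fewer genes. 4SU against untreated cells, a comparison that shares no library with the irradiated one, gave 1664 calls (14.7%), of which 1301 were higher (11.5% of genes tested) and 363 lower (3.2%), and no called gene changed by 4-fold. Of the 3978 genes that rose with light, 834 also rose in the dark (21%, or 64.1% of the dark rises) and 28 fell, and their median change was 0.61 with light and 0.22 without. Of the 2275 that fell with light, 285 fell in the dark (12.5%, or 78.5% of the dark falls) and 40 rose, with medians of -0.57 and -0.10. Of the genes that changed at least 2-fold with light, 124 of 344 that fell also fell in the dark (36.0%, or 34.2% of the dark falls) and 99 of 536 that rose also rose (18.5%, or 7.61% of the dark rises). Over the 11333 genes the changes with and without light correlated at 0.481, as a description across genes, which are not independent replicates.

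**Figure D5:**
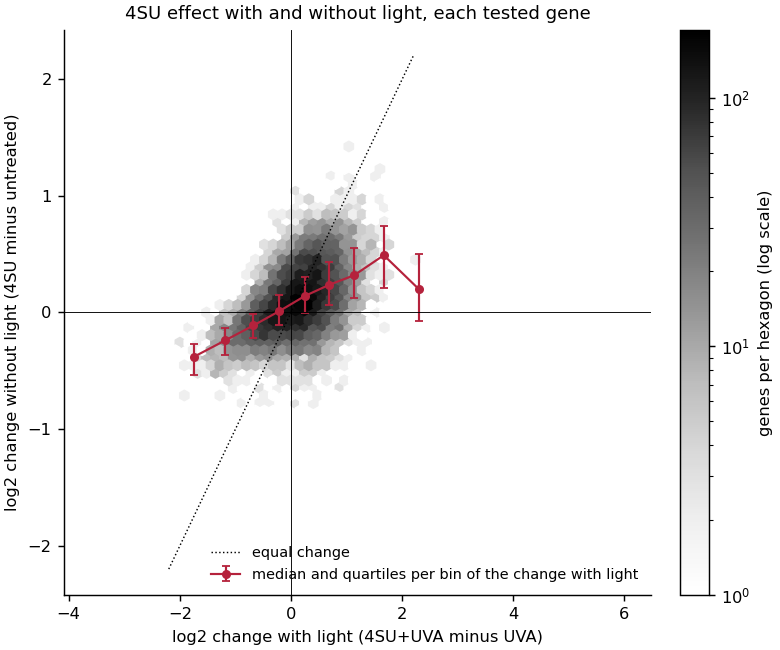
Log2 change from 4SU with light (horizontal axis, 4SU+UVA minus UVA) against that without light (vertical axis, 4SU minus untreated) for the tested genes, with darker hexagons holding more genes on a log scale. Red points and bars are the median and quartiles of the change without light in bins of the change with light. The medians slope upwards to 0.49 in the bin from 1.5 to 2, and the last bin, 27 genes at 2 or more, is lower at 0.20. At both ends they lie well inside the dotted line of equal change.

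Whether light altered the effect of 4SU was tested directly by the interaction, the change with light minus the change without. It was called for 2864 genes (25.3%), 1239 above 0 (10.9%) and 1625 below (14.3%). With each library centred on its median the split was 1440 above and 1409 below, so which side was larger depends on the scaling. Among genes that rose with light, the interaction was called above 0 at 1174 and below at 5, and among those that fell, it was called below 0 at 1448 and above at 2. For falls of at least 2-fold it was called below 0 at 328 of 344 genes (95.3%), and for rises of at least 2-fold it was called above 0 at 275 of 536 (51.3%). Those rises had a median of 2.56 RPKM in untreated cells and those falls one of 32.7 RPKM, so the shares do not compare the size of the effect. Median changes were 1.19 with light and 0.33 without for the rises, and -1.22 and -0.25 for the falls. The interaction draws on the same irradiated libraries as the calls, so the counts above are no independent support for them. It was 5.74 (SE 0.26, adjusted p = 1.2e-08 by limma) for ENSG00000120738, 4.97 (adjusted p = 1.6e-08) for ENSG00000177606 and -1.66 (adjusted p = 0.0003) for ENSG00000141367. For ENSG00000288644 it was -2.44 with an adjusted p of 0.066.

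Without light the medians fell with density over a narrower range, from 0.21 in the lowest class to -0.01 in the highest. The untreated libraries set the density classes and also form one side of this comparison, so that order is not independent of the values. The same limit holds for the dark and interaction medians of the dense genes given next. Over all densities the dark medians did not follow length: they were 0.08 in the shortest class, 0.11 in the third and 0.07 in the longest. The dark calls did shift, from 276 higher and 51 lower in the shortest class to 161 and 104 in the longest. Within the densest class the dark medians fell with length, from 0.03 in the shortest to -0.04 in the third and -0.16 in the longest. The 132 long dense genes had a median of -0.16 without light, where 40 fell and 3 rose, and a median interaction of -0.69. Transcripts under 500 nt had a median of 0.03 without light against 0.52 with it, and their median interaction was 0.52. Short dense genes had 0.03 against 0.23.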

How the data were processed

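Ribosome footprints of HAP1 cells were sequenced after RNase I digestion, pelleting through sucrose and selection of 15 to 70 nt fragments, per the labels' protocols. The deposited values are RPKM per gene, on hg38 with STAR 2.7.10a per the submitters' processing notes; how reads were counted, and on which annotation release, is not given in the sources used here. RPKM scales each library to its own total, so only relative change is measured. Whole reads and transcript lengths were recovered from the smallest steps of the RPKM values, a procedure tested on simulated data.

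Values were log2(RPKM + 0.5). All 12 libraries entered 1 limma 3.58.1 model (R 4.3.3) of 4 group means, with eBayes and a variance trend. Genes had at least 1 RPKM in 3 of the 6 libraries compared. Fold changes on this scale understate those of low genes. On simulated data the comparison recovered 53.5%, 84.0% and 99.0% of 1.5-, 2- and 4-fold changes. Single values per library were compared by exact permutation tests. Length and density classes divide the tested genes into 5, the latter by mean RPKM in untreated cells.

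The naming rule took the largest changes among genes called, without overlap between groups and with a mean of at least 5 RPKM, limited to 2 in each direction since no symbols could be paired. None of the 19580 identifiers matched the reference table, so 44 gene lists were not tested and shares per gene list were replaced by shares per length class. The comparison and lists were chosen with earlier results of these data known. Alternatives were other pseudocounts, filters and scalings, fits with fewer libraries, a voom fit on the recovered reads, equal depth and leaving out each replicate.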

Additional observations from a re-analysis of the deposited data

Results flagged for a closer look

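The effect of 4SU differed between irradiated and unirradiated cells at 2864 genes by the interaction test in limma. ENSG00000120738 had an interaction of 5.74 on the log2 scale. Its 3 4SU+UVA libraries lay above every UVA library, a separation that the naming rule required and that is therefore no added support. In the dark its libraries with and without 4SU overlapped. ENSG00000177606 had an interaction of 4.97. ENSG00000141367 had one of -1.66, with density lower in both settings and further below its control with light. No cause was tested for these differences.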

How the results depend on the processing

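The count of 6253 genes changed by 4SU in irradiated cells was 5014 to 6323 under 11 alternatives. The number tested varied with the filter: the count was 5204 of 8408 genes at 5 RPKM and 6244 of 15937 with no filter, against 6253 of 11333. The count was 5531 to 5838 when 1 of the 6 compared libraries was left out, with 3468 to 3627 rises and 2063 to 2211 falls. Leaving out 1 of the untreated or 4SU libraries, which enter through the shared estimate of the spread, gave 6115 to 6333. The 2864 interaction calls became 1962 to 3091, and 2354 to 2812 without 1 of the 12 libraries (1006 to 1231 above 0, 1344 to 1612 below). With median centring 1440 lay above 0 and 1409 below. At equal depth, an alternative added after seeing the data, 792 genes had an interaction above 0 in place of 1239; fewer reads were used there. Shares of summed RPKM, also added later, moved the difference for the shortest class from 7.61 to 9.78 percentage points and for the longest from -3.89 to -1.66, since RPKM weights short transcripts more. Without 1 library the shares differed by 7.50 to 7.74 and -4.16 to -3.64 points, and the mean length per footprint by -388 to -351 nt. Same-numbered samples of the groups did not deviate together (correlations of -0.038, 0.003 and -0.013), and a replicate block gave 6230 calls, 3963 higher and 2267 lower, and 2813 interaction calls. The interaction of ENSG00000288644 passed the threshold with that replicate block (-2.44, adjusted p = 0.0498 by limma) and without the first 4SU+UVA library (-3.46, adjusted p = 0.0011). None of the 4 genes given by identifier reversed its direction. Among the 6253 called genes, 22 turned sign with quantile normalisation, 7 of them called in the opposite direction, and 1 turned sign at equal depth. In simulations with the spread of these libraries and 200 changed genes, 22.0% of 1.5-fold interactions were recovered, so small interactions can be missed. Depth was not varied there.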

Other observations

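Of the 15937 genes with a read in any library, 65 had none in any UVA library while all 3 4SU+UVA libraries had at least 1. They had 3 to 35 reads in all (median 6), and 1 of them passed the filter for testing. The opposite held at 17 genes, with 3 to 11 reads (median 5). Of these sets, 11 and 1 genes also had no read in the groups without light. At equal depth the numbers were 67 and 10. The gene with the most reads was taken in each library separately, so it need not be the same gene throughout. It held 0.657% to 0.707% of a UVA library and 1.02% to 1.65% of a 4SU+UVA library.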
